A study of Mus musculus with 8 samples.

Results

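Microglia, the resident macrophages of the brain, are recognised in bulk tissue by a small set of transcripts that they make in the resting, surveying state. Expression of 9 such genes was followed in mouse cortex: the surface receptors Cx3cr1, P2ry12 and Csf1r, the C1q chains C1qa, C1qb and C1qc, the TGF-beta type I receptor Tgfbr1, the integrin subunit Itgam and the lysosomal membrane protein Laptm5. The genes were taken by symbol, and all 9 were found among the 10588 genes tested. RNA sequencing had been performed on right cortex from 4 bigenic Camk2a-tTa / deltaNLS-hTDP-43 mice and 4 nontransgenic mice, all of strain C57BL/6. Both groups had been raised on doxycycline, which was removed at 28 days of age, and tissue was taken 10 days later. In the bigenic mice the Camk2a promoter drives the tetracycline transactivator. Human TDP-43 with a mutated nuclear localization signal is thus made in forebrain neurons and not in microglia by design. No group carried either transgene alone, so the transactivator and the TDP-43 transgene cannot be told apart here. Each mouse is called by the animal number in the deposited table, with bg for bigenic (bg254, bg277, bg283, bg286) and nt for nontransgenic (nt242, nt250, nt255, nt278).

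These genes serve a common set of tasks. Microglia depend on signalling through the CSF1 receptor for survival, respond to the neuronal chemokine CX3CL1 through CX3CR1, and move their processes towards nucleotides through P2RY12. TGF-beta keeps them in the resting state. They are also the main source in the brain of C1q, the recognition molecule of the classical complement pathway, which tags material for uptake through complement receptors such as the integrin that holds the Itgam chain.

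The values are the deposited normalized counts, which are reads scaled per mouse and rounded, so that 1 read does not equal 1 unit. Column totals were much alike, and the reads behind them were estimated at 10.6 M in bg277, 15.2 M in bg254 and between 20.5 M and 31.9 M in the other 6 mice. In bg277 a value was the highest or the lowest of the 8 mice for 63.9% of the genes tested, against 14.5% to 26.1% for each of the other mice, and results are given without bg277 where that matters. The transcript uc999vvf.1, which the table lists without a gene symbol, was at 29375 to 41550 normalized counts in the bigenic mice and at 5 to 80 in the nontransgenic mice, so that the columns separated by group. A log2 fold change below is the bigenic minus the nontransgenic mean of log2(normalized count + 1), with its standard error (SE), from limma across all 10588 genes. A gene is called where its Benjamini-Hochberg adjusted p-value is below 0.05.

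Of the 9 genes, 5 were called lower in the bigenic mice (Cx3cr1, P2ry12, Csf1r, Laptm5 and C1qa) and 0 were called higher, whereas 15.4% of all genes tested were called lower, 20.5% higher and 35.9% either way. With a mouse left out the 5 became 3 to 6, with 3 without nt250 and without nt255. The share of all genes called lower also moved, from 10.5% without nt255 and 11.0% without nt250 to 20.2% without bg277. Counts with a mouse left out, here and below, are to be read beside this range. All 9 log2 fold changes were below 0, with a median of -0.42, against a median of 0.03 over all genes tested. For 4 of the 9 genes every bigenic mouse lay below every nontransgenic mouse, as was the case for 16.7% of all genes tested. Since this is bulk cortex, fewer microglia and less of a transcript per microglial cell cannot be told apart in any of these values.

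**Figure D1:**
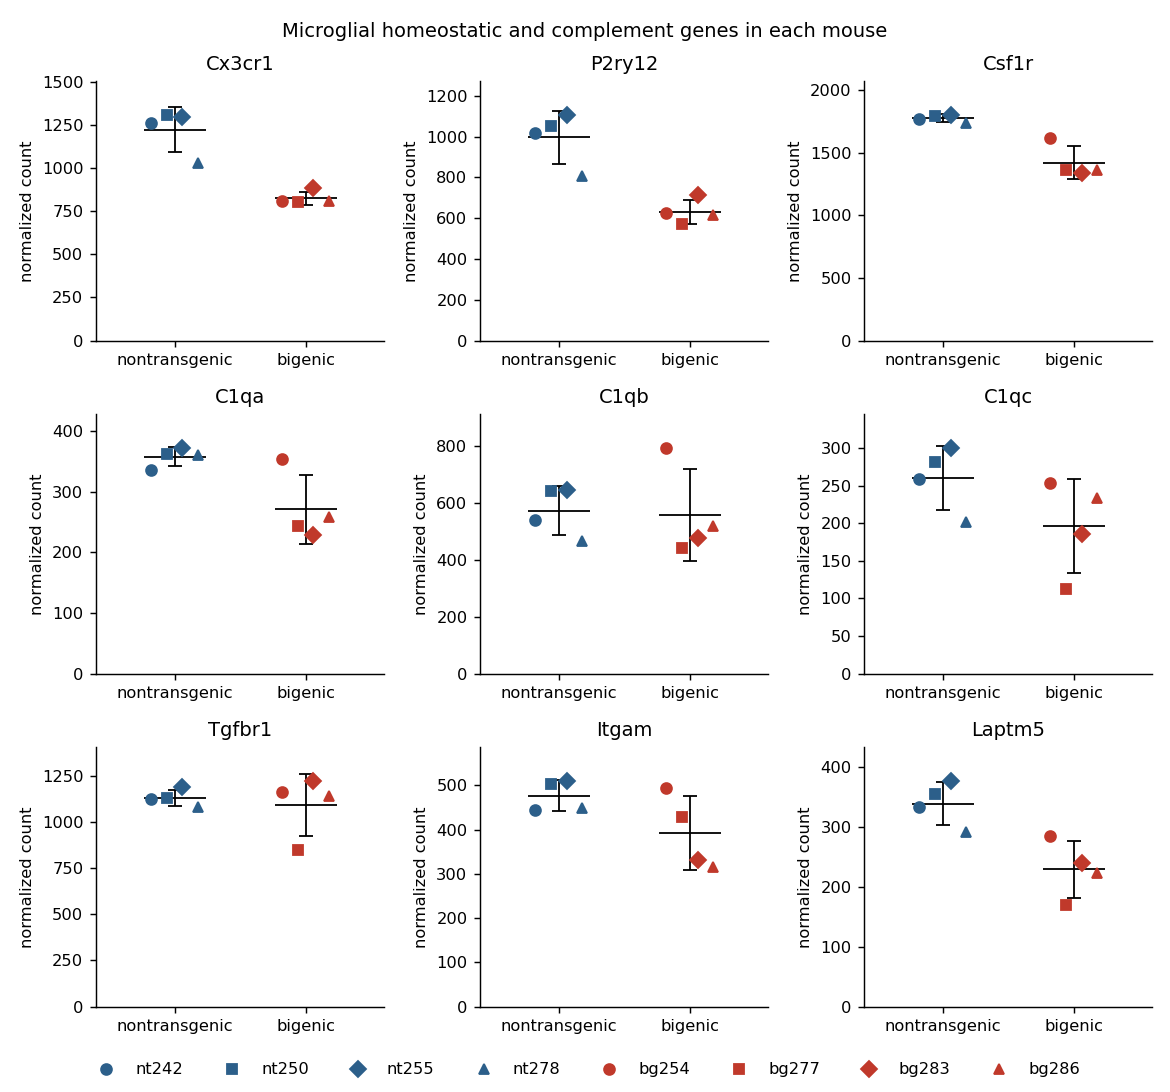
Normalized count (vertical axes, from 0) of each of the 9 genes in each mouse, with nontransgenic mice in blue and bigenic mice in red. Black lines give the mean and SD of 4 mice. The groups are apart for Cx3cr1, P2ry12, Csf1r and Laptm5 and overlap for the other 5 genes.

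The fractalkine receptor gene Cx3cr1 (uc009sbz.1, chr 9, 119957811 to 119977400 on the minus strand of mm9) gave one of the clearest separations. Its normalized counts were 1258, 1307, 1295 and 1029 in the nontransgenic mice nt242, nt250, nt255 and nt278, and 809, 802, 881 and 806 in the bigenic mice bg254, bg277, bg283 and bg286. The lowest nontransgenic value, in nt278, was still above the highest bigenic value. The mean was 32.5% lower in the bigenic mice (824.5 ± 37.8 against 1222.2 ± 130.5, SD, n = 4 each), with a log2 fold change of -0.56 (SE 0.09, limma adjusted p = 0.00156).

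P2ry12, the ADP receptor that guides microglial processes (uc008pis.2, chr 3, 59020193 to 59066753, minus strand), showed the largest fall of the 9 genes. Nontransgenic mice had 1019, 1050, 1106 and 807 normalized counts in the same order, and bigenic mice had 624, 569, 712 and 614. The groups again did not overlap, and nt278 was again the lowest nontransgenic mouse. The mean fell from 995.5 ± 130.7 to 629.8 ± 59.8 (SD, n = 4 each), 36.7% lower, with a log2 fold change of -0.65 (SE 0.11, limma adjusted p = 0.00206). Of all genes tested, 4.52% had a lower log2 fold change than P2ry12 and 6.65% a lower one than Cx3cr1.

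Csf1r, the receptor for the survival factors CSF1 and IL-34, changed less but with little spread among the controls. Its transcript (uc008fbn.1) had 1768, 1792, 1800 and 1734 normalized counts in the nontransgenic mice and 1615, 1361, 1336 and 1362 in the bigenic mice. Only bg254 came near the control range. The mean was 20.0% lower (1418.5 ± 131.6 against 1773.5 ± 29.6, SD, n = 4 each), with a log2 fold change of -0.33 (SE 0.08, limma adjusted p = 0.0108). Of the 5229 exon bases of Csf1r, 871 overlap exons of Hmgxb3 on the opposite strand, and reads there could be counted to either gene. Cx3cr1, P2ry12 and Csf1r were called in all 17 fits, the reported one and the alternatives, with log2 fold changes of -0.64 to -0.53, -0.75 to -0.60 and -0.39 to -0.30.

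Laptm5, a lysosomal membrane protein of blood-derived and microglial cells (uc008uzv.1, chr 4, 130469040 to 130492056, plus strand), was lower to a degree like Cx3cr1 but at a lower read depth. The nontransgenic mice had 333, 354, 376 and 291 normalized counts and the bigenic mice 285, 170, 239 and 223. The groups were barely apart, with bg254 at 285 just under nt278 at 291. The mean was 32.3% lower (229.2 ± 47.4 against 338.5 ± 36.2, SD, n = 4 each), with a log2 fold change of -0.58 (SE 0.16, limma adjusted p = 0.0181). The call was lost without nt250 (-0.55, limma adjusted p = 0.0549) and without nt255 (-0.53, limma adjusted p = 0.0597), and the value was -0.44 without bg277.

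Itgam, the alpha M chain of complement receptor 3 (uc009jxy.1, chr 7, 135206154 to 135271674, plus strand), did not pass the test. Normalized counts were 445, 503, 510 and 449 in the nontransgenic mice and 494, 428, 332 and 315 in the bigenic mice. The bigenic mice split, with bg254 inside the control range and bg283 and bg286 far below it. The log2 fold change was -0.30 (SE 0.14, 95% CI -0.62 to 0.02, limma adjusted p = 0.127). Without bg254 it was -0.42 and was called (limma adjusted p = 0.0329). With limma's array weights, which give bg254, bg277 and nt278 less weight, it was -0.55 (limma adjusted p = 0.000144). Under these weights 26.9% of all genes tested were called lower.

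Tgfbr1, the kinase-bearing receptor of TGF-beta, which many brain cells besides microglia express (uc008sun.1, chr 4, 47366094 to 47427803, plus strand), had nearly equal means. The nontransgenic mice lay at 1122, 1129, 1188 and 1079 normalized counts and the bigenic mice at 1162, 848, 1221 and 1139. With bg277 set aside, the other 3 bigenic mice were within or just above the control range. The log2 fold change of -0.06 (SE 0.11, 95% CI -0.31 to 0.19, limma adjusted p = 0.698) turned to 0.06 without bg277 and to 0.03 with array weights, and neither was called.

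**Figure D2:**
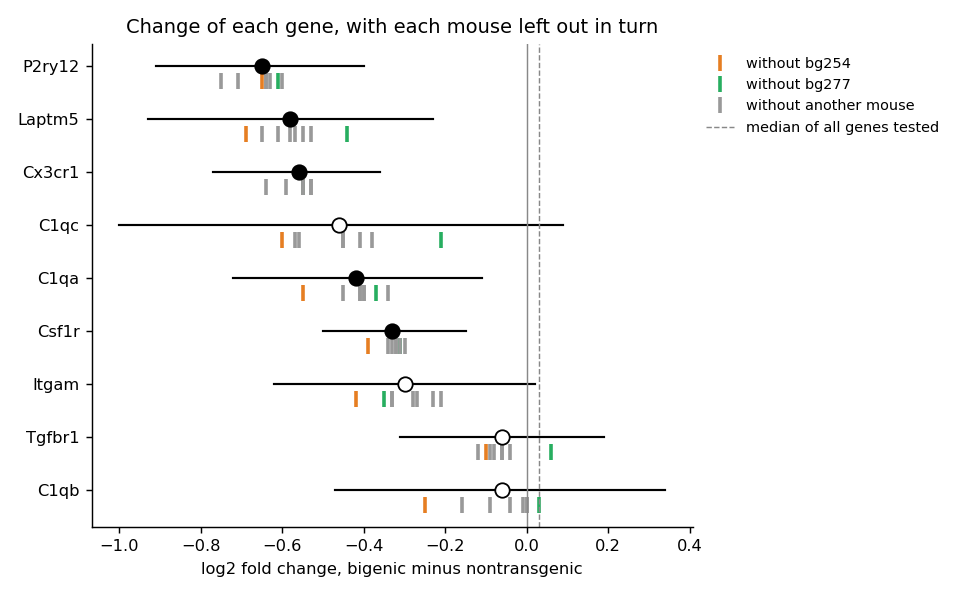
Log2 fold change of each of the 9 genes (horizontal axis, circle, filled where called) with its 95% confidence interval as a line. The ticks under each circle give the value with 1 mouse left out, in orange for bg254 and in green for bg277, and the dashed line marks the median of all genes tested, 0.03. Tgfbr1 and C1qb pass 0 without bg277, and the other 7 genes stay below 0 whichever mouse is left out.

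C1q is built from 3 chains whose genes lie side by side on the minus strand of chr 4 in mm9, C1qb from 136436044 to 136442102, C1qc from 136445719 to 136448980 and C1qa from 136451832 to 136454718. Their values are given in turn. None of the ratios between them, given further below, differed between the groups after adjustment. C1qa (uc008vir.1) had 335, 362, 372 and 360 normalized counts in the nontransgenic mice and 354, 244, 228 and 258 in the bigenic mice. Of the chains only C1qa was called, with 3 of 4 bigenic mice below every nontransgenic mouse and bg254 among the controls. Its mean was 24.1% lower (271.0 ± 56.7 against 357.2 ± 15.7, SD, n = 4 each), with a log2 fold change of -0.42 (SE 0.14, limma adjusted p = 0.0382). This call was lost when bg283, bg286, nt242, nt250, nt255 or nt278 was left out, with limma adjusted p-values of 0.0647 to 0.0973 and log2 fold changes of -0.45 to -0.34. It was also lost with no filter on low values (limma adjusted p = 0.0548) and after rescaling the mice to equal totals (limma adjusted p = 0.0549).

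C1qb (uc008vip.1) did not separate the groups at all. Its normalized counts were 540, 641, 646 and 465 in the nontransgenic mice and 794, 443, 476 and 519 in the bigenic mice, so that the highest and the lowest of the 8 values were both bigenic. The log2 fold change was -0.06 (SE 0.18, 95% CI -0.47 to 0.34, limma adjusted p = 0.804), and leaving out 1 mouse moved it between -0.25 without bg254 and 0.03 without bg277.

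C1qc (uc008viq.1) had a fold change as large as that of C1qa but more spread. Nontransgenic mice had 259, 281, 300 and 201 normalized counts and bigenic mice 254, 112, 186 and 233. The value of bg277 rests on about 54 reads, whose Poisson interval (95%, counting error only) runs from 84.0 to 146.0 normalized counts. The log2 fold change was -0.46 (SE 0.24, 95% CI -1.0 to 0.09, limma adjusted p = 0.171), and it was -0.21 without bg277. Among the alternatives it was called with array weights (-0.39, limma adjusted p = 0.0147), under which 26.9% of all genes tested were called lower.

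Since the chains enter the C1q molecule together, the ratios of their transcripts within a mouse were also taken, after the single values had been seen. The ratio of C1qb to C1qa was 1.61, 1.77, 1.74 and 1.29 in the nontransgenic mice and 2.24, 1.82, 2.09 and 2.01 in the bigenic mice. Every bigenic ratio was thus above every nontransgenic one, with a log2 difference of 0.35 (exact two-sided permutation p = 0.0286, the smallest that 70 arrangements allow, and 0.0857 after adjustment over the 3 ratios). The ratio of C1qc to C1qa differed by -0.04 on the log2 scale (exact permutation p = 0.857, adjusted 0.857). The ratio of C1qb to C1qc differed by 0.39 (exact permutation p = 0.0857, adjusted 0.129), with the highest value, 3.96, in bg277. None of the 3 ratios passed after adjustment.

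**Figure D3:**
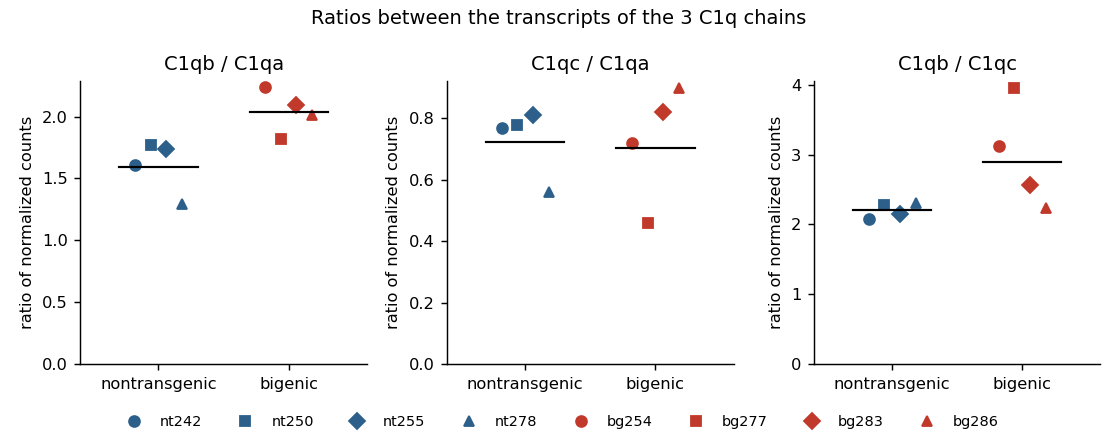
Ratio of normalized counts (vertical axes, from 0) between the C1q chains in each mouse, with geometric means as black lines. The C1qb to C1qa ratio runs from 1.29 to 1.77 in the nontransgenic mice and from 1.82 to 2.24 in the bigenic mice, and the other 2 ratios overlap between the groups.

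Levels of different genes were compared only after division by the exon length of the gene in GENCODE, which may be longer than the transcript the authors counted. In the nontransgenic mice the order of mean normalized counts per kb of exon was C1qb (526.7), P2ry12 (418.5), C1qa (343.5), Csf1r (339.2), Cx3cr1 (327.8), Tgfbr1 (172.9), C1qc (134.8), Laptm5 (89.4) and Itgam (74.8). The ranges over mice of neighbours in this order overlapped from C1qb down to Cx3cr1, and again for Laptm5 and Itgam. There was no overlap between Cx3cr1 and Tgfbr1, between Tgfbr1 and C1qc, or between C1qc and Laptm5. Within every nontransgenic mouse, C1qb was above P2ry12 and Laptm5 above Itgam per kb, so the overlap of these ranges reflects spread between mice. In the bigenic mice C1qb was again first (512.9), with Csf1r (271.3), P2ry12 (264.7), C1qa (260.6) and Cx3cr1 (221.1) after it per kb. The order of Csf1r, P2ry12 and C1qa is not resolved, since their bigenic ranges of 255.5 to 308.9, 239.2 to 299.3 and 219.2 to 340.4 overlap.

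Across the genes, single mice recurred at the edges of their group. Of the 9 genes, bg254 had the highest bigenic value for 6 and bg277 the lowest for 6, while nt255 was the highest nontransgenic mouse for 8 and nt278 the lowest for 7. Centred on each gene's mean over the 8 mice, the mean log2 level of the 9 genes was -0.41 in bg277, -0.21 in bg283 and in bg286, and 0.07 in bg254. It was 0.02 in nt278, 0.17 in nt242, 0.27 in nt250 and 0.31 in nt255. On this average the bigenic mouse bg254 thus lay above the nontransgenic mouse nt278, although it lay below every control for Cx3cr1, P2ry12, Csf1r and Laptm5.

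**Figure D4:**
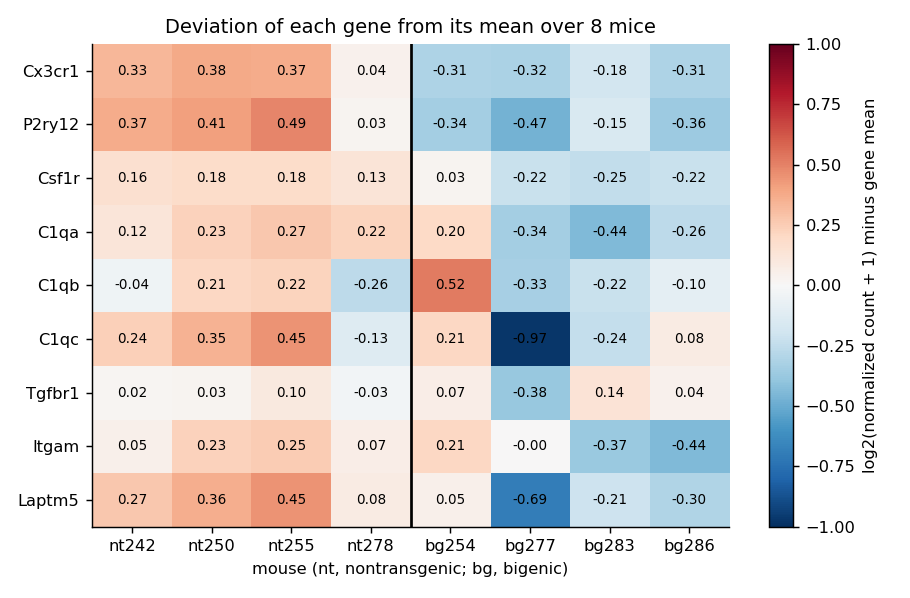
Log2(normalized count + 1) of each gene in each mouse minus the mean of that gene over the 8 mice, with red above and blue below the mean. The column of nt278 lies near 0 for Cx3cr1 (0.04) and P2ry12 (0.03), the column of bg254 is above 0 for 7 of the 9 genes, and bg277 holds the lowest entry, -0.97 for C1qc.

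Promoter sequences were read for these genes because several of them moved together. Myeloid genes are widely bound by the transcription factor PU.1, whose sites hold the core GGAAGT or GAGGAA. RefSeq windows (GRCm38.p6, a later build than the mm9 of the counts) were used for 7 of the 9 genes, with 2 start sites for Tgfbr1. None was at hand for C1qa, and Csf1r was left out because of the chromosome it lies on, whatever its window holds. The counts of matches below thus do not cover C1qa and Csf1r. The 250 bases before the start site were searched on both strands. GGAAGT occurs in 19.7%, GAGGAA in 23.3% and either in 36.7% of 32851 such windows, and a site that holds both in overlap was counted for each. Of the 8 windows of these genes, 5 hold GGAAGT and 5 hold GAGGAA, which together makes 6 with either, and 1 of those 6 is the second window of Tgfbr1, whose first window holds neither. Cx3cr1 holds neither within its window, which says only that these letters are not there. The windows of 4 genes are printed 5' to 3' along the gene, ending at the base before the start site, with matches in capitals (ACTTCC and TTCCTC are the cores on the other strand). They are 2 genes whose groups were apart and that hold a match, the C1q chain whose groups overlapped most, and Cx3cr1:
P2ry12, chr3:59262986-59263235, minus strand: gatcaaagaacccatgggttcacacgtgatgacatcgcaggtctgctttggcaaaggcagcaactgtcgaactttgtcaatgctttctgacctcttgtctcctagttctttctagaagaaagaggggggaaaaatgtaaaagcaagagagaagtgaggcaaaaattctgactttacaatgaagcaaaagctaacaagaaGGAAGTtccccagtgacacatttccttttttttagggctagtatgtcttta
Laptm5, chr4:130913066-130913315, plus strand: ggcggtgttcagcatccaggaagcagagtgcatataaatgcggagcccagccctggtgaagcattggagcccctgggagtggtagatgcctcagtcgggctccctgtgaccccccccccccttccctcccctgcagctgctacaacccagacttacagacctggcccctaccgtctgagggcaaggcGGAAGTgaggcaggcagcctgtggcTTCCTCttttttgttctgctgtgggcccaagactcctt
C1qb, chr4:136886201-136886450, minus strand: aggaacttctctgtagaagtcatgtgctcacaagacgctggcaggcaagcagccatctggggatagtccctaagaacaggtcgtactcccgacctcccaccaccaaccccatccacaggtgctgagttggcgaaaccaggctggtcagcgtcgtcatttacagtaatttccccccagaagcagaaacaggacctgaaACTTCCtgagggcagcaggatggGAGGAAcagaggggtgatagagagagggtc
Cx3cr1, chr9:120068297-120068546, minus strand: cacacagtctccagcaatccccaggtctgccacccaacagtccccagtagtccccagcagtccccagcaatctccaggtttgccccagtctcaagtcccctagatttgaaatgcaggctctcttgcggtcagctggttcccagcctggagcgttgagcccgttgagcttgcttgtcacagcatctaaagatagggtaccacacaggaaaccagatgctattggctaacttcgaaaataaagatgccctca

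The matches of P2ry12, Laptm5 and C1qb to GGAAGT start 51, 63 and 53 bases before the start site. C1qb, which was not called, and Laptm5, which was, both hold both cores. A match is a string of letters and was not tested as a binding site.

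Other genes of the resting microglial state followed in the same direction. Of 51 further genes listed for this state, 26 were tested (the other 25 stayed under 10 RPM in every mouse), 9 of them were called lower and 0 higher, with 24 of 26 below 0 and a median log2 fold change of -0.36. That is 34.6% called lower against 15.4% of all genes, and the 9 became 5 without nt242 and without nt255. The list's summed normalized counts were 33582 to 36497 in the bigenic and 39690 to 42824 in the nontransgenic mice, with means of 34591 and 41472. Mef2c, a transcription factor that cortical neurons also express strongly, had means of 17535.8 and 22575.2 by itself. Most of the difference between the sums thus lies in Mef2c, and the sums say little about the rest of the list.

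Among them Tmem119, a surface protein used to tell microglia from other macrophages, had 340, 370, 383 and 455 normalized counts in the nontransgenic and 307, 302, 285 and 270 in the bigenic mice (log2 fold change -0.40, limma adjusted p = 0.0167). The organic anion transporter gene Slco2b1 had 421, 444, 391 and 423 against 287, 232, 276 and 290 (-0.63, limma adjusted p = 0.00132). Neither gene overlapped between the groups. Selplg, the ligand of P-selectin (-0.45, limma adjusted p = 0.0103), and Mef2c (-0.36, limma adjusted p = 0.00749) also fell without overlap, and these 4 genes were called in all 17 fits.

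Rgs10, a regulator of G-protein signalling, fell by 0.53 on the log2 scale (limma adjusted p = 0.0177), although bg277 at 405 normalized counts stood above nt250 and the other bigenic mice lay at 256 to 278. Its call was lost without nt242 (-0.51, limma adjusted p = 0.0521). The lectin gene Siglech fell by 0.45 on the log2 scale (limma adjusted p = 0.0183), which was lost without nt255 (limma adjusted p = 0.0626). The remaining calls were Entpd1, P2ry13 and Sall1, and each was lost in 4 or more of the 8 fits with a mouse left out.

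P2ry13, Sall1, Sparc and Lcp1 are named because of their values, which had been seen. Sall1, the transcription factor that keeps microglial identity, was at 533.8 ± 43.7 in the nontransgenic and 412.8 ± 61.6 in the bigenic mice (SD, n = 4 each, limma adjusted p = 0.0371). P2ry13, the sister receptor of P2ry12, was at 214.5 ± 55.5 and 132.0 ± 31.5 (limma adjusted p = 0.0485). Above 0 were Sparc at 0.30 (limma adjusted p = 0.235), which vessels and astrocytes also make, and Lcp1 at 0.01 (not called).

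**Figure D5:**
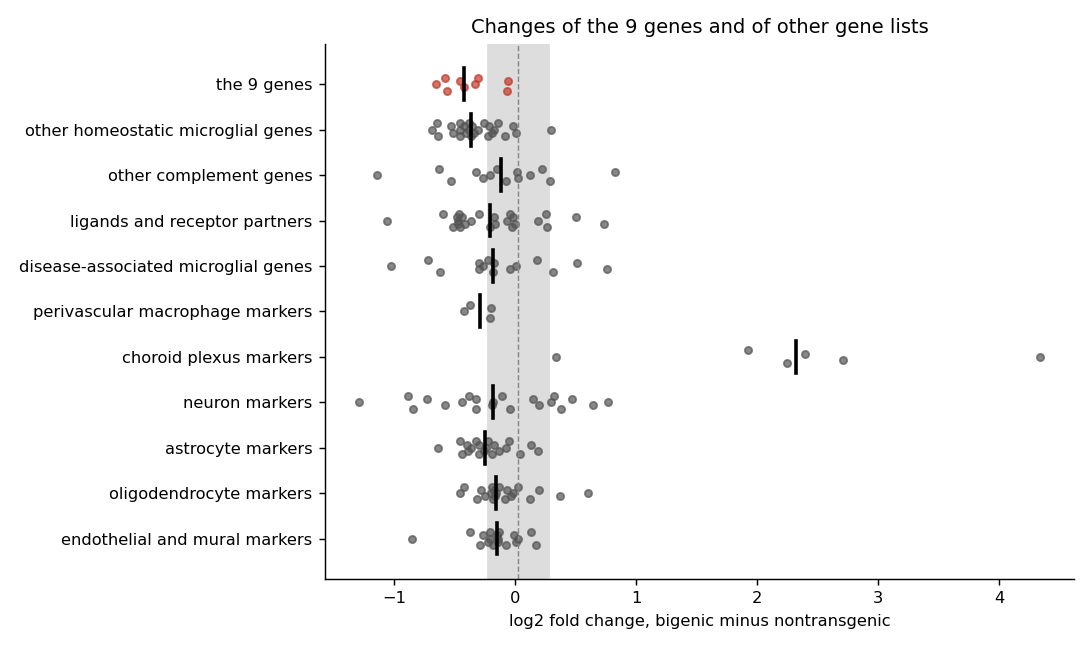
Log2 fold change (horizontal axis) of each tested gene of each list, with the list's median as a black bar. The dashed line is the median of all genes tested, 0.03, and the grey band their middle quartiles. The 9 genes and the other homeostatic genes have medians of -0.42 and -0.36, and 5 of 6 choroid plexus markers lie beyond 1.9.

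Signals that reach the 9 gene products were measured as ligands, co-receptors and signal carriers. Of 31 genes listed for this role, 25 were tested, 11 were called lower and 2 higher, with a median of -0.20, against 15.4% lower and 20.5% higher over all genes. The 11 depended on single mice, with 3 left without nt242, 4 without nt250, 5 without nt255, 6 without nt278 and 7 without bg254 and without bg283, and the 2 higher became 1 without bg254, bg283, nt250, nt255 or nt278. Most are made by neurons, astrocytes or vessels rather than by microglia, so their values speak of the tissue around these cells. Cx3cl1, the neuronal ligand of CX3CR1, had 13483, 13730, 14308 and 12981 normalized counts in the nontransgenic mice and 8676, 11865, 9396 and 9680 in the bigenic mice. The groups were apart, with bg277 nearest the controls (log2 fold change -0.47, SE 0.10, limma adjusted p = 0.00477), and the call held in all 17 fits. Ligand and receptor transcripts on this axis were thus both lower in the bigenic mice.

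The ligands of the CSF1 receptor behaved otherwise. Csf1 was at 285.0 ± 59.8 in the bigenic and 289.5 ± 33.7 normalized counts in the nontransgenic mice (SD, n = 4 each, log2 fold change -0.04, 95% CI -0.39 to 0.31, limma adjusted p = 0.866). Il34, the form made by cortical neurons, was at 917.5 ± 47.7 and 961.2 ± 103.1 (-0.06, 95% CI -0.26 to 0.14, limma adjusted p = 0.613). Neither was called, and both crossed 0 without nt278, at 0.02 for Csf1 and 0.01 for Il34.

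The tested genes of the TGF-beta path moved in both directions. The ligand gene Tgfb1 was not found among the genes tested. Tgfb3 rose, from 179, 185, 177 and 224 normalized counts in the nontransgenic mice to 235, 405, 341 and 315 in the bigenic mice (log2 fold change 0.74, SE 0.17, limma adjusted p = 0.0074), and so did the co-receptor gene Tgfbr3 (0.51, limma adjusted p = 0.0333), named after its value was seen. Tgfb2 fell from 258.8 ± 35.3 to 186.0 ± 19.2 (SD, n = 4 each, limma adjusted p = 0.0215), without overlap. Itgav, whose product helps to release TGF-beta from its latent form, fell from 4573.8 ± 314.6 to 3031.8 ± 274.6 (limma adjusted p = 0.000832). Fkbp1a, which encodes an inhibitory protein bound to the type I receptor and abundant in neurons, had the largest fall of the list, with 4760 to 5447 against 2190 to 2856 (log2 fold change -1.06, SE 0.10, limma adjusted p = 8.83e-05).

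Further down this path the partner receptor gene Tgfbr2 (-0.29, limma adjusted p = 0.0448) and Smad3, which carries the signal to the nucleus (-0.47, limma adjusted p = 0.0185), also fell. Tgfbr2 lost its call without any 1 of bg254, bg283, bg286, nt242, nt250 and nt255, and Smad3 without nt242, nt255 or nt278. Tgfb2 lost its call without nt242 or nt250, and Tgfbr3 without any 1 of 6 mice. The calls of Tgfb3, Itgav and Fkbp1a did not depend on any 1 mouse.

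Entpd1, the surface enzyme that breaks down ATP and ADP and so limits the ligand of P2RY12, had 324, 307, 273 and 277 normalized counts in the nontransgenic mice and 242, 147, 221 and 233 in the bigenic mice. The groups were apart (log2 fold change -0.51, limma adjusted p = 0.0344), but the call was lost without nt242, nt250, nt255 or nt278, with limma adjusted p-values up to 0.0962.

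Beyond C1q, most listed complement genes did not reach 10 RPM in any mouse. Of 46 listed, 14 were tested, of which 4 were called lower and 1 higher, with a median of -0.11, against 15.4% lower and 20.5% higher over all genes. The 4 became 2 without nt242, nt250 or nt255. C1ra, C1s, C2, C3, C4b, Serping1 and Itgb2, the direct partners of C1q and Itgam, were under that limit in every mouse and were not analysed here. Those called are genes of neurons and of mitochondria as much as of complement. C1qbp, whose protein binds C1q in the test tube and works in mitochondria, rose from 1468.8 ± 97.8 to 2595.2 ± 54.1 (SD, n = 4 each, log2 fold change 0.82, limma adjusted p = 5.08e-05).

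The neuronal pentraxins, synaptic proteins that bind C1q, both fell. Nptx2 had 2716, 2477, 2257 and 2438 normalized counts in the nontransgenic mice and 827, 962, 1308 and 1503 in the bigenic mice (log2 fold change -1.14, SE 0.17, limma adjusted p = 0.000927). For Nptx1 the log2 fold change was -0.62 (limma adjusted p = 0.000661). Sirpa, the receptor of the signal CD47 that protects from uptake (-0.27, limma adjusted p = 0.0229), and the complement inhibitor gene Csmd2 (-0.32, limma adjusted p = 0.0435) completed the calls. Sirpa lost its call without bg254, nt242, nt250 or nt255, and Csmd2 without any 1 of those 4, bg283 or bg286.

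Genes that microglia raise around lesions gave no single direction. Of 30 genes of the disease-associated state listed, 15 were tested (one of them Csf1, above). Of these 4 were called lower and 3 higher, with a median of -0.18, against 15.4% lower and 20.5% higher over all genes. With a mouse left out the calls became 3 to 5 lower and 2 to 4 higher. Itgax, Clec7a and Cst7, which define that state, were under the 10 RPM limit in every mouse, and so were Trem2 and Tyrobp. The lysosomal protease genes Ctsd (0.76, limma adjusted p = 6.71e-05), Ctsz (0.51, limma adjusted p = 0.00624) and Ctsl (0.32, limma adjusted p = 0.0368) rose. Timp2 (-0.72, limma adjusted p = 0.000225), Lpl (-1.02, limma adjusted p = 0.00954), Apoe (-0.29, limma adjusted p = 0.0122) and Axl (-0.22, limma adjusted p = 0.0258) fell, and the other cells of the cortex make all of these too. Ctsl and Axl are named after their values were seen and lost their calls in 5 and 6 of the 8 fits with a mouse left out, and Apoe lost its call under quantile normalization (limma adjusted p = 0.0876).

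Markers of other cells were set beside these results. Perivascular macrophages share Cx3cr1, Csf1r and C1q with microglia. Of their 12 markers 4 were tested, Stab1, Mrc1, Dab2 and F13a1, with 0 called and log2 fold changes of -0.42 to -0.19, and the defining markers Cd163 and Lyve1 were under the 10 RPM limit in every mouse. Their summed normalized counts were 599 to 1031 in the bigenic and 822 to 989 in the nontransgenic mice. The highest sum was that of bg254, the bigenic mouse that also had the highest C1qa, C1qb, C1qc and Itgam, with F13a1 at 207 there against 57 to 95 in the other bigenic mice. Without bg254 Mrc1 was called lower (log2 fold change -0.69). The part of these cells in the results was not tested. None of 21 blood leukocyte and red cell markers was found among the genes tested. Only uniquely mapping reads were counted, which may miss near-identical gene copies such as Hba-a1 and Hba-a2. The absence thus does not measure the blood in the tissue.

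Choroid plexus markers were much higher in the bigenic mice, with 5 of 6 tested markers called higher and 0 lower. The 6 summed to 14275 to 29482 normalized counts in the bigenic and 6591 to 8221 in the nontransgenic mice, with Ttr, the plexus's main secreted protein, at 7741 to 18520 against 236 to 1023. Enpp2, the marker not called (0.34, limma adjusted p = 0.128), is named after its values were seen. It made up most of the nontransgenic sum, at 6181 to 7237, and was at 5716 to 10003 in the bigenic mice. The nontransgenic sum thus says little of the other markers. The order of the bigenic mice by the sum of the 6 was bg254, bg283, bg286 and bg277. The part of the plexus in the values of the 9 genes was not tested. Astrocyte markers were called lower in 7 of 20 and higher in 0 (median -0.24, summed 170846 to 195919 against 208529 to 225390), and the 7 became 4 without nt250 and without nt255. Of 21 neuron markers 9 were called lower and 4 higher (median -0.18), and the 9 became 5 without bg283, bg286, nt242, nt255 or nt278, and 6 without bg254 or nt250, and the 4 became 2 without nt242 or nt250. Over all genes 15.4% were called lower and 20.5% higher. Calls were few among oligodendrocyte markers (1 lower and 1 higher of 21) and among endothelial and mural markers (2 lower and 0 higher of 18), and with a mouse left out they became 1 to 3 lower and 0 to 2 higher in the first list and 0 to 2 lower and 0 to 1 higher in the second. Genes of other cell types were thus also among those called lower, and the lists were not tested against one another.

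Genes whose profile over the 8 mice was most like the mean of the 9 genes were sought among all others, by the root mean square difference of mean-centred log2 values. The closest were the astrocyte adhesion gene Hepacam (0.044), the cilium gene Ift52 (0.048), the small GTPase gene Rab31 (0.049), the microglial lectin gene Siglech (0.058) and 1500011H22Rik (0.06). The 9 genes themselves lay farther from their own mean, from 0.10 for Csf1r to 0.24 for C1qc. Hepacam had 1250, 1375, 1383 and 1188 normalized counts in the nontransgenic mice and 1114, 871, 1003 and 979 in the bigenic mice. That nt278 was lowest, bg254 highest and bg277 lowest in their groups follows from the selection by profile.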

How the data were processed

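Poly(A)+ RNA of the right cortex had been sequenced in 8 mice, 4 of each genotype. According to the submitters' processing notes and the methods, adaptors were trimmed with cutadapt, reads were mapped to mm9 with Bowtie 0.12.7, uniquely mapping reads were kept and counted on exons with bedtools, and exons were merged into genes. The deposited table holds normalized counts for 28662 transcripts, a score that the authors made by scaling the reads of each mouse and rounding to whole numbers. How they were scaled is not given in the sources used here, so no test for raw counts was used. A second deposited table holds the authors' DESeq2 comparison, of which only the gene symbols were used. Strand was not stated for the counting.

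The number of reads behind each column was estimated from the spacing of the whole numbers in it, on values up to 300 (in simulated columns 8 of 8 steps were recovered within 1 percent). Between 10.6 M and 31.9 M reads lie on genes, so that 3 reads correspond to 1.94 to 6.2 normalized counts. Intervals cover counting error only.

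The test covered the 10588 genes that reached 10 RPM (relative to the column total) in 1 mouse or more, of which 8980 did so in every mouse. Log2(normalized count + 1) was compared with limma 3.58.1 (lmFit, eBayes with trend) under R 4.3.3. P-values were adjusted over all genes by Benjamini-Hochberg, with a threshold of 0.05. The script was tested on simulated data. The scale understates changes of low genes. For C1q ratios an exact permutation test (two-sided) was used. The labels give the mice as separate samples. Python 3.11.15, numpy 2.4.6, pandas 2.3.3, scipy 1.17.1 and matplotlib 3.10.9 were used. Gene positions and exon lengths come from GENCODE on mm9, and promoters from RefSeq on GRCm38.p6.

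The 9 genes and all gene lists were chosen with earlier results of these data known. Listed genes were matched by symbol, so a gene kept under another symbol would be taken as under the 10 RPM limit. Besides the 9 genes, those named are the 5 with the smallest limma p-value in a list, direct partners of the 9 gene products, and the 5 with the most similar profile. Other genes are said to be named after their values were seen. The lists of neurons, astrocytes, oligodendrocytes and vessels are described by counts, with medians and sums for some.

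Tried as alternatives were leaving out each mouse in turn, array weights, quantile normalization, equal totals, a pseudocount of 10 or of 0.1, the filter in every mouse, and no filter. limma's voom on approximate reads was added after the data had been seen.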

Additional observations from a re-analysis of the deposited data

Results flagged for a closer look

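In each group of 4 mice, the gap between the highest or lowest value and its neighbour was compared with the range of the group by Dixon's test. Of 154 groups from 77 named genes, 9 were past the 95% limit, and chance gives about 1 in 20.

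Among the 9 genes, Cx3cr1 in bg283 was at 881 normalized counts, above the other bigenic mice (gap 0.911 of the range), and Csf1r in bg254 was at 1615, above the others (0.907). Both values lay below every nontransgenic mouse. In bg277, Rgs10 was high at 405 (0.852), Il34 high at 989 (0.99) and Sall1 low at 321 (0.862). Mrc1 was high in bg254 at 297 (0.833). In nt278, Tgfb3 was high at 224 (0.83) and 1500011H22Rik low at 529 (0.848). Aldh1l1, an astrocyte marker, was low in nt242 at 1092 (0.914). Of the 9 values, 3 were from bg277, 2 from bg254, 2 from nt278, and 1 each from bg283 and nt242. What these mice share was not tested.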

How the results depend on the processing

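Over all genes 3796 were called, 2654 to 4817 with a mouse left out and 6455 with array weights, under which 26.9% of genes were called lower against 15.4%. Of the 9 genes, 3 to 6 were called lower with a mouse left out (3 without nt250 and without nt255), and of the 26 other homeostatic genes 5 to 12 (5 without nt242 and without nt255) and 23 with array weights. Array weights set bg277 at 0.0843, bg254 at 0.461 and nt278 at 0.534. The direction turned for Tgfbr1 with array weights (0.03), and with a mouse left out values ran from -0.12 to 0.06 for Tgfbr1, -0.25 to 0.03 for C1qb, -0.17 to 0.07 for Csf1, -0.11 to 0.01 for Il34 and -0.06 to 0.15 for Lcp1. None of these 5 genes was called in any fit. The cause was not tested. Over the log2 fold changes of the named genes under the alternatives, 1068 kept their direction and their side of the threshold, 112 lost the call, 21 gained it and 11 reversed in sign. C1qc and Laptm5 could not be given with 10 RPM required in every mouse, since they did not pass that filter. Of all calls 57.1% were higher in the bigenic mice, and 52.1% under quantile normalization.

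No paired analysis was possible because the columns carry animal numbers and not the replicate numbers of the labels. Depth limits C1qc, Laptm5 and C1qa most, with 54, 82 and 118 reads in bg277.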
